A study of Felis catus with 6 samples.

Results

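EPHA4, EFNA5, SEMA7A and FARP2 are 4 genes of cell guidance, followed here in the oral mucosa of cats with feline chronic gingivostomatitis (FCGS), a persistent inflammation of the mouth. They were chosen by symbol, with earlier results of these data known. The files hold 21529 Ensembl gene identifiers without symbols. All 4 passed the filter on low values, a minimum of 1 FPKM in 3 or more of the 6 libraries, which kept 13327 identifiers for testing. FPKM, fragments per kilobase of transcript with the library's mapped fragments also divided out, is a level per transcript length, so levels of different genes can be set side by side. Symbols were at hand for 1929 of the identifiers tested, from a listing of genes that differed at least 2-fold between the tissues in these same libraries. A difference of at least 2-fold was therefore a condition of being named and is no finding, and no guidance gene below it could be followed.

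The FCGS lesion was represented by 3 libraries, and healthy oral mucosa next to the lesion by 3 libraries. Each tissue was taken once from each of the same 3 cats, named Bart, Jerome and Sadie in the labels, so the healthy mucosa came from affected animals. All of the study's cats with FCGS were edentulous, received buprenorphine against pain and had no immunosuppressive drugs or antibiotics, and the ages of these 3 are not in the labels. The labels call the tissue gingival, whereas the study's text names a site lateral to the palatoglossal folds. The files hold no read counts, and the steps between low values differed up to 1.76-fold between libraries, which gives their relative depth provided that only the number of reads entered the scaling. By pair of libraries, the common ratio of these steps held for 6.87% to 30.4% of the low-valued genes, and the proviso was not tested.

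Eph receptors are receptor tyrosine kinases, and their ligands, the ephrins, are held on the surface of the neighbouring cell, so that signalling needs contact between cells. Semaphorins are secreted or membrane-bound cues that are read mainly by plexins, often together with neuropilins, and that steer axons, vessels and leukocytes through small GTPases such as RAC1. In epithelia, Eph and ephrin signalling is known for its part in cell sorting, adhesion and tissue boundaries, and SEMA7A is also known as a surface protein of activated lymphocytes.

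The receptor EPHA4, the ligand EFNA5 and the exchange factor FARP2 were lower in FCGS lesions than in healthy mucosa, and SEMA7A was higher, in 3 of 3 cats for each gene. FARP2 fell 4.34-fold, EPHA4 fell 4.27-fold and EFNA5 fell 2.56-fold, while SEMA7A rose 2.26-fold. All 4 passed limma, fitted with tissue alone and without the pairing by cat, at a Benjamini-Hochberg adjusted p under 0.05 over all identifiers tested. The same call was made for 11.9% of all identifiers tested (6.61% lower and 5.31% higher in lesions) and for 35.4% of those with a symbol. With the cat as a block in the fit all 4 passed too, at an adjusted p of 0.0216 to 0.0476, as did 23.2% of all identifiers tested (11.1% lower and 12.2% higher in lesions) and 68.2% of those with a symbol (22% lower and 46.1% higher). The lesion and healthy values of all 4 genes did not overlap, which was so for 38.6% of all identifiers tested and for 71.3% of those with a symbol. Lesions lay wholly below healthy mucosa for 21.9% of all identifiers tested and 25.8% of those with a symbol, and wholly above it for 16.7% and 45.5%. In bulk samples, fewer cells of a type and less RNA per cell cannot be told apart, and this bears on every difference given here.

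**Figure D1:**
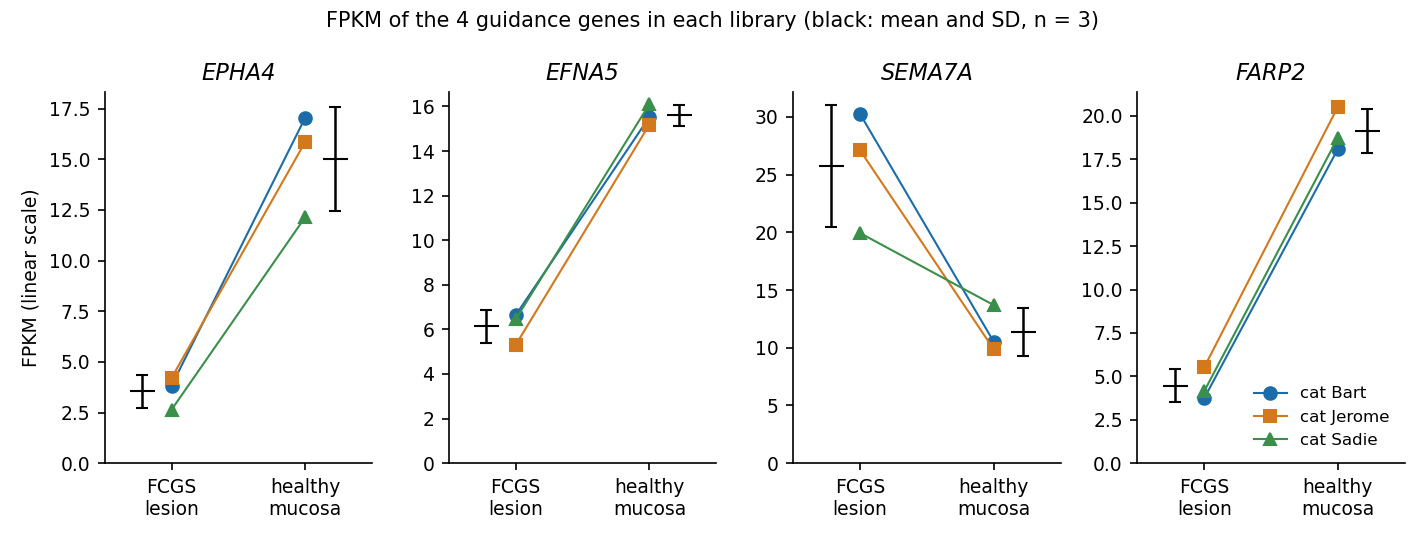
FPKM (linear axis from 0) of EPHA4, EFNA5, SEMA7A and FARP2 in the FCGS lesion (left) and the healthy mucosa (right) of each cat, joined by a line per cat, with the mean and SD of 3 libraries in black. Lesions lie below healthy mucosa for EPHA4, EFNA5 and FARP2 and above it for SEMA7A, whose line is flattest in Sadie (19.9 FPKM in the lesion and 13.7 FPKM in healthy mucosa).

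EPHA4 (ENSFCAG00000007712) encodes a receptor that binds ephrins of both classes and is best known for repelling growing axons. Its level was 3.82 FPKM in the lesion of Bart, 4.20 in that of Jerome and 2.63 in that of Sadie, against 17.0, 15.9 and 12.1 FPKM in their healthy mucosa. Sadie had the lowest EPHA4 in both tissues, and the highest lesion lay well below the lowest healthy sample. The mean and SD of 3 libraries were 3.55 ± 0.817 FPKM in lesions, against 15.0 ± 2.56 in healthy mucosa (n = 3 each). The log2 difference was -2.09 (SE 0.29, 95% confidence interval -2.79 to -1.40), with an adjusted p of 0.0217 by limma. Within a cat it came to -2.21 in Sadie, -2.16 in Bart and -1.92 in Jerome, so the 3 animals differed little in the size of the fall. Of all identifiers tested, 4.85% had a more negative difference. The mean level of EPHA4 lay above that of 19.6% of identifiers tested in lesions and of 56.3% in healthy mucosa.

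EPHA4 was 1 of 3 receptors with a symbol among the 14 Eph receptors of the list. EPHA2, an epithelial receptor for A-class ephrins, was the most abundant of them in healthy mucosa and also fell in lesions. EPHA2 was at 28.8, 61.2 and 16.0 FPKM in the lesions of Bart, Jerome and Sadie, against 158, 129 and 164 FPKM in healthy mucosa, a log2 difference of -2.30 (SE 0.48, limma adjusted p = 0.036). The within-cat fall of EPHA2 ran between 2.12-fold in Jerome and 10.3-fold in Sadie, a wider spread than the 3.77-fold to 4.61-fold of EPHA4. EPHB6, a member of the family that lacks kinase activity, was at 9.16, 59.3 and 30.9 FPKM in lesions, against 106, 105 and 104 in healthy mucosa. The tissues did not overlap for EPHB6 either, but its adjusted p was 0.0923. EPHA4 made up 3.37% to 9.15% of the summed FPKM of the 3 receptors in lesions and 4.32% to 6.33% in healthy mucosa, and these shares overlapped. EPHA4 was thus the least abundant of the named Eph receptors in all 6 libraries.

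EFNA5 (ENSFCAG00000011104) encodes an ephrin anchored to the membrane by a lipid, a ligand of EPHA4 and of other EphA receptors. Its level was 6.64 FPKM in the lesion of Bart, 5.31 in that of Jerome and 6.46 in that of Sadie, against 15.5, 15.2 and 16.1 FPKM in healthy mucosa. The coefficient of variation across cats was 11.8% in lesions and 2.98% in healthy mucosa, which was nearly uniform. The mean and SD of 3 libraries were 6.14 ± 0.725 FPKM in lesions, against 15.6 ± 0.465 in healthy mucosa (n = 3 each). The log2 difference was -1.35 (SE 0.21, 95% confidence interval -1.86 to -0.85), with an adjusted p of 0.0231 by limma. It was -1.52 in Jerome, -1.32 in Sadie and -1.23 in Bart. A more negative difference was found for 8.49% of identifiers tested. Of the 8 ephrins of the list, EFNA5 was the 1 with a symbol, and the others were not analysed here.

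The ratio of this ligand to its receptor was higher in the lesion than in the healthy mucosa of each cat. EFNA5 to EPHA4 was 1.74 in the lesion of Bart, 1.26 in that of Jerome and 2.45 in that of Sadie, against 0.911, 0.958 and 1.33 in healthy mucosa. The healthy mucosa of Sadie lay above the lesion of Jerome, so the tissues overlapped. With 3 libraries against 3 the smallest two-sided p of an exact permutation test is 0.1, so the ratios are given as values without a test.

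**Figure D2:**
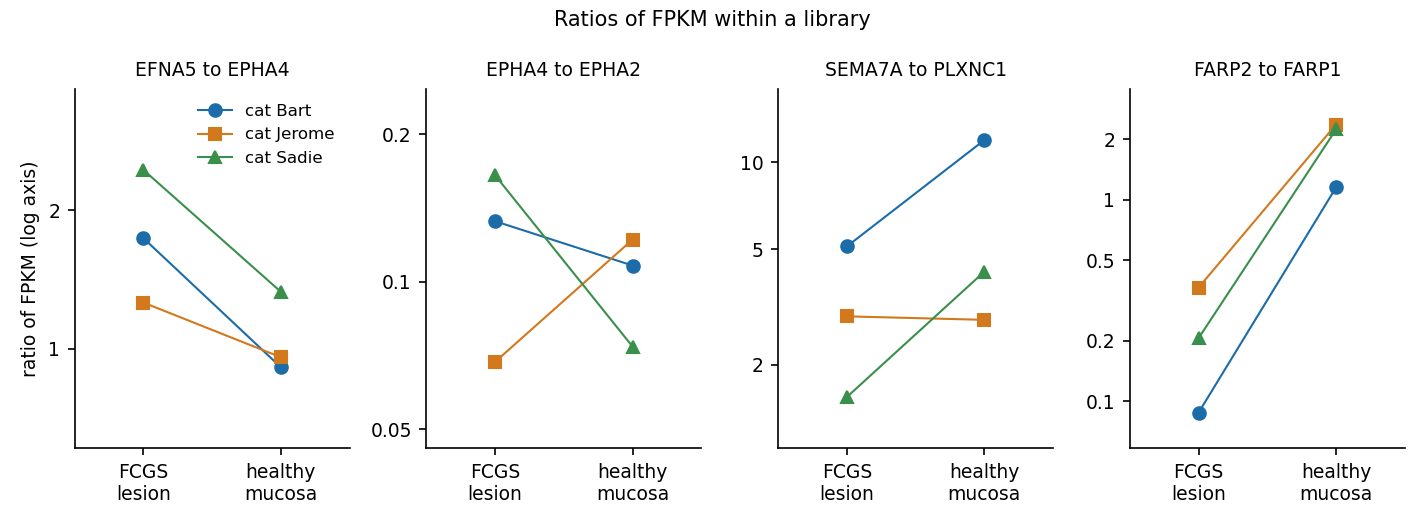
Ratio of FPKM within a library (log axis) for 4 gene pairs in the FCGS lesion (left) and the healthy mucosa (right) of each cat, joined by a line per cat. EFNA5 to EPHA4 is higher in each lesion, FARP2 to FARP1 is lower in each lesion without overlap, and the lines of EPHA4 to EPHA2 and of SEMA7A to PLXNC1 run both ways.

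SEMA7A (ENSFCAG00000008142) encodes a semaphorin anchored to the membrane by a lipid, which in mouse and human cells binds plexin C1 and integrins with a beta-1 chain. Its level was 30.3 FPKM in the lesion of Bart, 27.1 in that of Jerome and 19.9 in that of Sadie, against 10.5, 9.87 and 13.7 FPKM in healthy mucosa. Sadie had the lowest lesion and the highest healthy sample, and the gap between these closest values was the narrowest of the 4 genes. The mean and SD of 3 libraries were 25.8 ± 5.29 FPKM in lesions, against 11.4 ± 2.05 in healthy mucosa (n = 3 each). The log2 difference was 1.17 (SE 0.25, 95% confidence interval 0.56 to 1.79), with an adjusted p of 0.038 by limma. SEMA7A rose 2.87-fold in Bart and 2.75-fold in Jerome and was 1.46-fold higher in Sadie, whose value alone lay under 2-fold. A higher difference was found for 13.8% of identifiers tested. The call was lost when FPKM were rescaled to the same sum in every library (log2 difference 1.25, adjusted p = 0.0609).

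The receptors of SEMA7A with a symbol, PLXNC1 and ITGA1, had higher means in lesions but passed only once the cat was a block in the fit. PLXNC1, the plexin that binds SEMA7A, was at 5.91, 9.22 and 12.8 FPKM in the lesions of Bart, Jerome and Sadie, against 0.884, 3.45 and 3.27 FPKM in healthy mucosa. Its log2 difference was 1.98 (95% confidence interval 0.58 to 3.39, adjusted p = 0.0742), and with the cat as a block the adjusted p was 0.0246. ITGA1, the alpha chain of the integrin alpha-1 beta-1, was at 17.5, 3.34 and 2.70 FPKM in lesions, against 1.68, 1.01 and 0.565 in healthy mucosa. Its log2 difference was 2.18 (95% confidence interval 0.37 to 3.99, adjusted p = 0.107, and 0.042 with the cat as a block). SEMA7A was highest in the lesion of Bart, where ITGA1 was highest and PLXNC1 lowest among the lesions. The ratio of SEMA7A to PLXNC1 was 5.12, 2.94 and 1.55 in these lesions, against 11.9, 2.86 and 4.19 in healthy mucosa, with no common direction. SEMA7A to ITGA1 was lower in the lesion of each cat, at 1.73, 8.11 and 7.38, against 6.25, 9.82 and 24.2 in healthy mucosa, and the tissues overlapped.

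SEMA7A was 1 of 5 semaphorins with a symbol among 20 in the list, and the 1 that was called. With the cat as a block 3 of the 5 were called higher, SEMA7A, SEMA6A and SEMA6C, of which SEMA6A and SEMA6C are transmembrane semaphorins. These calls are 20% of the 5 without the block and 60% with it. Of all identifiers with a symbol 21.1% and 46.1% were called higher. SEMA6A was at 25.4, 3.21 and 3.16 FPKM in the lesions of Bart, Jerome and Sadie, against 5.80, 1.39 and 1.12 FPKM in healthy mucosa, with an adjusted p of 0.336 without the block and 0.0288 with it. SEMA6C averaged 14.5 FPKM in lesions, against 5.28 in healthy mucosa (adjusted p = 0.0714, and 0.0463 with the block). SEMA4G averaged 1.09 FPKM in lesions, against 3.76 in healthy mucosa, with an adjusted p of 0.0834. SEMA3G, a secreted semaphorin of vessels, averaged 13.8 FPKM in lesions, against 6.29 in healthy mucosa, with an adjusted p of 0.188.

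Among the 13 semaphorin receptors of the list 8 had a symbol. Those called were 3 B plexins, lower in lesions, and PLXND1, higher. The B plexins PLXNB1, PLXNB2 and PLXNB3, receptors for class 4 and class 5 semaphorins, fell. Their log2 differences were -1.78, -1.03 and -1.85, with adjusted p of 0.038, 0.0435 and 0.0254, and PLXNB2 lost its call with the cat as a block (adjusted p = 0.0516). PLXND1, an endothelial plexin, rose by 1.59 on the log2 scale (adjusted p = 0.0456). The neuropilins NRP1 and NRP2, which are also receptors of vascular growth factors, had log2 differences of 1.86 and 1.88 that passed only with the cat as a block (adjusted p = 0.0327 and 0.0241, against 0.096 and 0.207). Called higher and lower were 1 and 3 of the 8 (12.5% and 37.5%), against 21.1% and 14.3% of all identifiers with a symbol. With the block 5 receptors were called higher and 2 lower (62.5% and 25%), against 46.1% and 22%.

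FARP2 (ENSFCAG00000002801) encodes an exchange factor that in mouse neurons couples plexin A and neuropilin-1 to RAC1 when a class 3 semaphorin binds. Its level was 3.74 FPKM in the lesion of Bart, 5.52 in that of Jerome and 4.14 in that of Sadie, against 18.1, 20.5 and 18.7 FPKM in healthy mucosa. Jerome had the most FARP2 in both tissues. The mean and SD of 3 libraries were 4.47 ± 0.933 FPKM in lesions, against 19.1 ± 1.26 in healthy mucosa (n = 3 each). The log2 difference was -2.12 (SE 0.24, 95% confidence interval -2.70 to -1.53), with an adjusted p of 0.0189 by limma. Within a cat it was -2.28 in Bart, -2.18 in Sadie and -1.90 in Jerome. A more negative difference was found for 4.79% of identifiers tested, and the confidence intervals of FARP2 and EPHA4 covered nearly the same range.

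FARP1, the paralog of FARP2 and an exchange factor known from synapse formation, had the opposite sign. FARP1 was at 42.5, 15.0 and 20.1 FPKM in the lesions of Bart, Jerome and Sadie, against 15.7, 8.69 and 8.42 FPKM in healthy mucosa. Its log2 difference was 1.16 (95% confidence interval 0.03 to 2.29), with an adjusted p of 0.15, and of 0.0307 with the cat as a block. The ratio of FARP2 to FARP1 was 0.088 in the lesion of Bart, 0.367 in that of Jerome and 0.206 in that of Sadie, against 1.15, 2.36 and 2.23 in healthy mucosa. FARP1 was thus the more abundant of the pair in every lesion and FARP2 in every healthy sample. Their sum overlapped between the tissues, at 46.3, 20.5 and 24.3 FPKM in lesions, against 33.8, 29.2 and 27.2 in healthy mucosa.

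The order of the 4 genes by level differed between the tissues. In lesions SEMA7A was the highest, at 25.8 FPKM on average, and lay above EFNA5 without overlap. EFNA5, FARP2 and EPHA4 followed at 6.14, 4.47 and 3.55 FPKM, and neighbours in that order overlapped between cats. In healthy mucosa FARP2 was the highest at 19.1 FPKM and lay above EFNA5, at 15.6 FPKM, without overlap. EPHA4 and SEMA7A followed at 15.0 and 11.4 FPKM, where EFNA5 and EPHA4 overlapped and so did EPHA4 and SEMA7A.

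Over the 6 libraries the log2 levels of EPHA4 and FARP2 correlated at r = 0.972, those of EFNA5 and FARP2 at 0.951 and those of EPHA4 and EFNA5 at 0.940. SEMA7A correlated with EPHA4 at -0.885, with EFNA5 at -0.918 and with FARP2 at -0.922. These values describe 6 libraries that share 2 tissues and 3 cats, and the difference between the tissues sets most of each. Within the lesions the order of the cats was not shared: EPHA4 and FARP2 were highest in Jerome, whereas EFNA5 and SEMA7A were highest in Bart.

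The named genes whose levels followed each of the 4 most closely were ranked by Pearson r over the 6 libraries, as a description. For EPHA4 they were CACHD1, CTNND1, CSTF2, KIAA1468 and KDM1B, with r of 0.994 to 0.998. CTNND1, which encodes the cadherin-binding p120-catenin, was at 36.0, 34.8 and 28.3 FPKM in the lesions of Bart, Jerome and Sadie, against 97.3, 95.3 and 76.2 FPKM in healthy mucosa. For EFNA5 they were NHLRC1, BLZF1, PIK3C2G, MPHOSPH6 and STOX2, with r of 0.978 to 0.998. BLZF1, which encodes a Golgi protein, was at 10.5, 8.66 and 9.58 FPKM in lesions, against 22.3, 22.8 and 24.3 in healthy mucosa.

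For FARP2 the closest were OAT, FAM212A, RBM47, EZH2 and GLTP, with r of 0.992 to 0.997. OAT, which encodes ornithine aminotransferase, was at 31.8, 40.0 and 35.1 FPKM in the lesions of Bart, Jerome and Sadie, against 123, 125 and 117 FPKM in healthy mucosa. For SEMA7A they were CXCR4, SLC16A3, C10orf54, IL10 and CLEC1A, with r of 0.976 to 0.987. CXCR4, the receptor of the chemokine CXCL12 and itself a guidance receptor of the lists, was at 64.8, 82.6 and 38.4 FPKM in lesions, against 11.2, 9.24 and 17.3 in healthy mucosa. Like SEMA7A, CXCR4 had its lowest lesion and its highest healthy sample in Sadie. IL10, an anti-inflammatory cytokine, was at 11.5, 5.62 and 4.71 FPKM in lesions, against 1.23, 0.777 and 1.43 in healthy mucosa.

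Of the 35 effectors in the list, which carry guidance signals inside the cell, 20 had a symbol, of which 6 rose, 5 fell and 9 did not pass. These are 30.0% and 25.0% of the 20, against 21.1% and 14.3% of all identifiers with a symbol. With 10 of the 20 above 0 and 10 below, each at least 2-fold, their median log2 difference of 0.01 lies in the gap between them and describes no gene. The Vav exchange factors, which bind activated Eph receptors in mouse cells, took both directions. VAV1, the form of blood cells, rose by 1.92 and VAV2 rose by 1.05 on the log2 scale, whereas VAV3 fell by 1.41 (adjusted p = 0.0266, 0.0425 and 0.0234). VAV3 was low throughout, at 0.427 to 0.959 FPKM in lesions, against 2.35 to 2.85 in healthy mucosa, so its lesion values were raised to the floor of 1 FPKM before testing. RAC1, the GTPase on which FARP2 and the Vav proteins act, was at 147, 151 and 125 FPKM in the lesions of Bart, Jerome and Sadie, against 291, 284 and 280 FPKM in healthy mucosa (log2 difference -1.02, adjusted p = 0.0231).

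The other effectors that fell were LIMK2, a kinase that acts on cofilin, and NCK2, an adaptor of activated receptors, at -1.50 and -1.48 on the log2 scale. Those that rose were CFL2, a cofilin of muscle, FES, a kinase of myeloid cells, SIPA1, which switches off Rap GTPases, and MICAL1, which takes actin filaments apart, at 1.22 to 1.89. With the cat as a block 10 effectors were called higher and 7 lower, which is 50.0% and 35.0%, against 46.1% and 22% of all identifiers with a symbol. NGEF, an exchange factor that in mouse neurons acts downstream of EPHA4, averaged 1.34 FPKM in lesions, against 3.21 in healthy mucosa, with an adjusted p of 0.21.

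Among 22 slit, netrin and other cues and receptors 6 had a symbol. Of these 6, 50% were called higher and 0% lower, against 21.1% and 14.3% of all identifiers with a symbol. With the cat as a block it was 50% and 16.7%, against 46.1% and 22%. CXCR4, CXCL12 and the endothelial receptor ROBO4 rose by 2.28, 1.65 and 1.63 on the log2 scale (adjusted p = 0.0246, 0.0264 and 0.0288), and 3 did not pass. ROBO1, a receptor for slits, averaged 1.84 FPKM in lesions, against 8.09 in healthy mucosa, and was called lower only with the cat as a block (adjusted p = 0.147 without it and 0.0261 with it).

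Over all 6 guidance lists 43 of 112 genes had a symbol, of which 11 rose, 11 fell and 21 did not pass, and 34 did not overlap between the tissues. These 34 are 79.1% of the 43, near the 71.3% of all identifiers with a symbol. Without EPHA4, EFNA5, SEMA7A and FARP2 the counts were 10 higher and 8 lower of 39. Among all identifiers with a symbol 21.1% rose and 14.3% fell, and the median log2 difference was 1.26, against 1.05 for the 43 guidance genes and -0.07 for all identifiers tested. As each of the 43 differed at least 2-fold, with 22 above 0 and 21 below, their median is the smallest rise, that of VAV2, and is no typical difference. The identifiers with a symbol lack the strongest falls of the listing, which bears on their share of falls and on both medians of named genes. With the cat as a block 21 guidance genes (48.8%) were called higher and 13 (30.2%) lower, against 46.1% and 22% of all identifiers with a symbol. The lists were written with earlier results of these data known, so no count here stands as independent evidence of a direction.

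**Figure D3:**
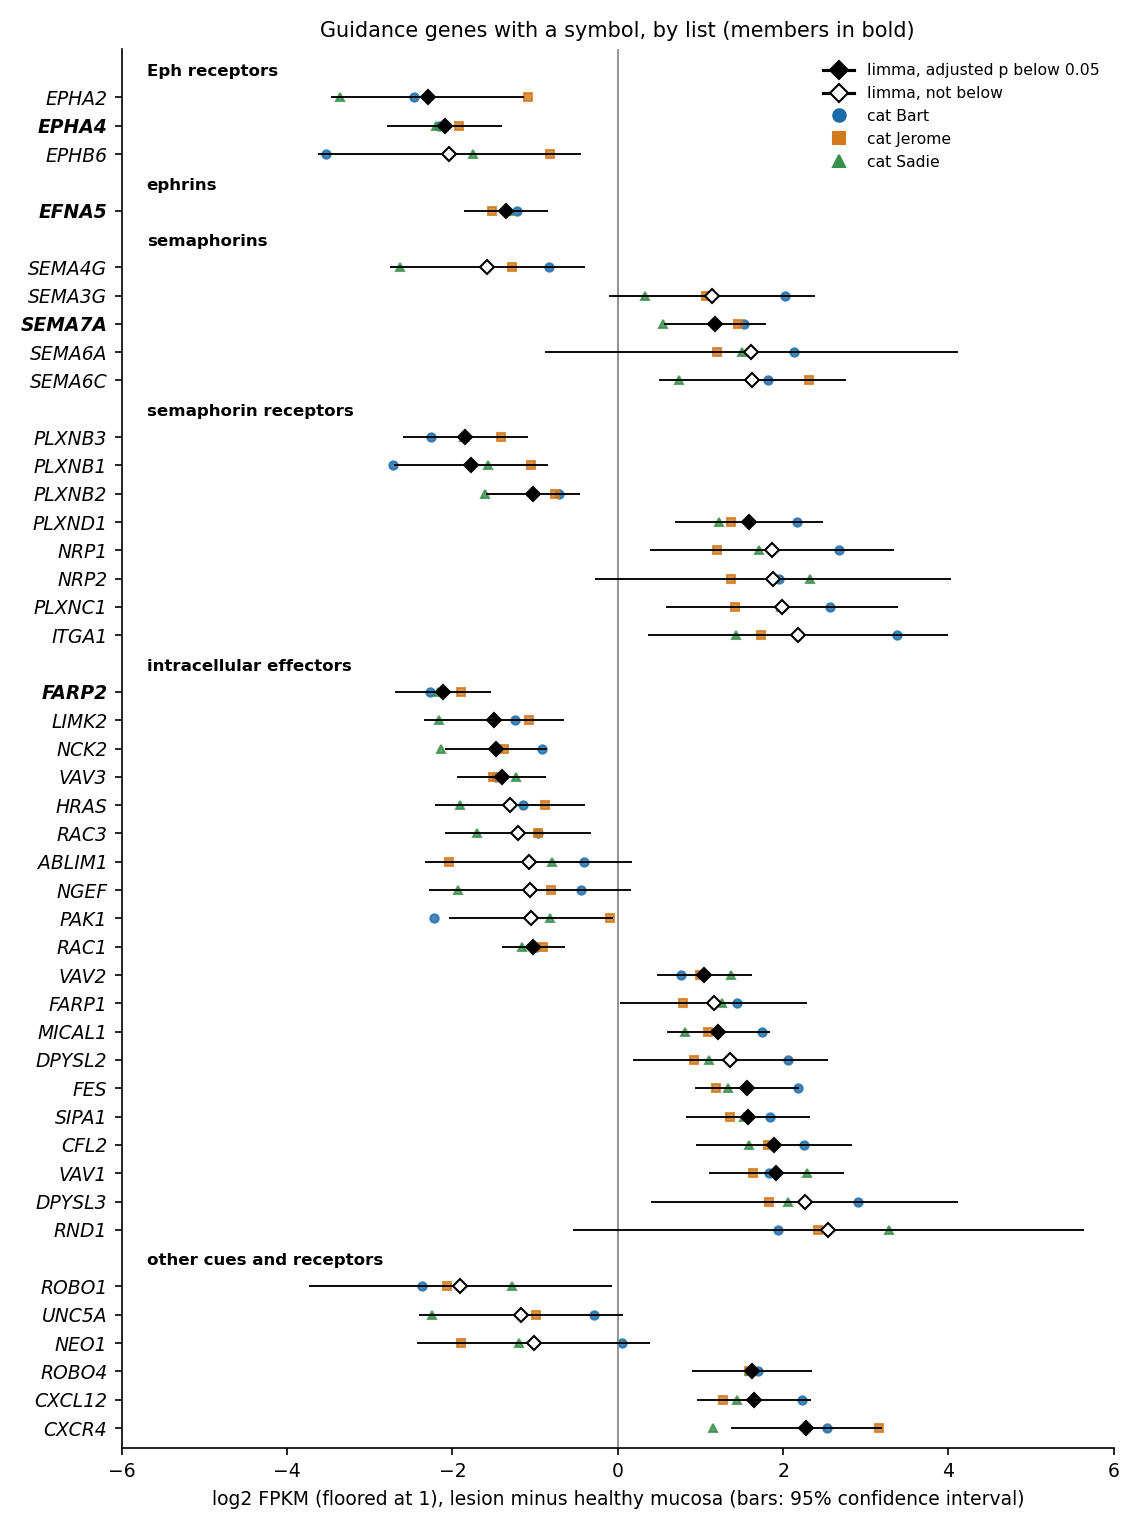
Log2 difference in FPKM (floored at 1), FCGS lesion minus healthy mucosa, for the 43 guidance genes with a symbol, by list, with the mean and 95% confidence interval (diamonds, filled where the limma adjusted p is under 0.05) and the difference within each cat (coloured symbols). The 3 Eph receptors and EFNA5 lie below 0, the B plexins lie below 0 while the other semaphorin receptors lie above it, and the effectors spread to both sides.

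Markers of cell types, like the guidance genes, had a symbol only where they differed at least 2-fold, so unchanged markers could not be followed. The rows of the listing with its strongest falls were not used either, so a marker without a symbol need not be unchanged. Of the 22 epithelial markers 11 had a symbol, 10 had a lower mean log2 level in lesions and 2 passed (5 with the block). These calls are 18.2% of the 11 (45.5% with the block). Of all identifiers with a symbol 14.3% (22% with the block) were called lower. KRT4, a keratin of oral surface layers, was at 8.99, 2534 and 569 FPKM in the lesions of Bart, Jerome and Sadie, against 2089 FPKM in the healthy mucosa of Bart, and was listed at 0 in that of Jerome and Sadie. The other 10 epithelial markers summed to 89.9 to 331 FPKM in lesions, against 589 to 844 in healthy mucosa, and their median log2 difference came to -2.80 (Bart), -0.92 (Jerome) and -1.63 (Sadie). FARP2 had the same order of cats as this median (Bart, Sadie, Jerome), whereas EPHA4 fell most in Sadie and EFNA5 in Jerome. The part of epithelial content in the falls of EPHA4, EFNA5 and FARP2 was not tested.

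Leukocyte and vascular markers were higher in lesions, as was SEMA7A. Of all identifiers with a symbol 21.1% were called higher (46.1% with the block). Without the block the share called was 10% for T cell and 20% for endothelial markers, below 21.1%. It was 33.3% for B and plasma cell markers and 70% for myeloid markers. All 10 T cell markers had a higher mean in lesions, summing to 252 to 707 FPKM, against 69.3 to 194 FPKM in healthy mucosa, and 1 passed (10 with the block). The 9 B and plasma cell markers with a symbol summed to 446 to 2698 FPKM in lesions, against 33.4 to 296 in healthy mucosa, and 3 passed (9 with the block). The 10 myeloid markers summed to 1124 to 1299 FPKM in lesions, against 183 to 402 in healthy mucosa, and 7 passed (9 with the block). The 10 endothelial markers summed to 726 to 1769 FPKM in lesions, against 188 to 389 in healthy mucosa, and 2 passed (9 with the block). For the cats in the order Bart, Jerome and Sadie, the median log2 difference was 1.631, 1.521 and 1.497 for T cell markers and 2.14, 1.56 and 1.54 for endothelial markers. Sadie was lowest in both by a small margin, whereas SEMA7A was at 1.52, 1.46 and 0.54. In these lesions T cell markers summed to 252, 571 and 707 FPKM and endothelial markers to 1769, 726 and 746. SEMA7A was highest in the lesion of Bart and lowest in that of Sadie. The median log2 difference was 3.40, 2.38 and 4.78 for B and plasma cell markers and 2.80, 1.70 and 2.23 for myeloid markers, with Jerome lowest. The part of leukocyte content in the rise of SEMA7A was not tested.

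Markers of fibroblasts and mural cells, 6 of 10 with a symbol, summed to 290 to 1214 FPKM in lesions, against 93.8 to 227 in healthy mucosa. By limma 0 of them passed, with 3 at an unadjusted p under 0.05 and 6 passing with the cat as a block. Of all identifiers with a symbol 21.1% were called higher, and 46.1% with the block. The 13 skeletal muscle markers summed to 19.9, 5258 and 4556 FPKM in the lesions of Bart, Jerome and Sadie, against 3.99, 14.3 and 2280 FPKM in healthy mucosa. By limma 0 of 13 passed, with 0 at an unadjusted p under 0.05 and 0 with the block. The part of muscle content in the differences of the 4 guidance genes was not tested. Of 10 markers of neurons and Schwann cells NCAM1, which natural killer cells also express, was the 1 with a symbol, and it rose by 1.99 on the log2 scale.

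**Figure D4:**
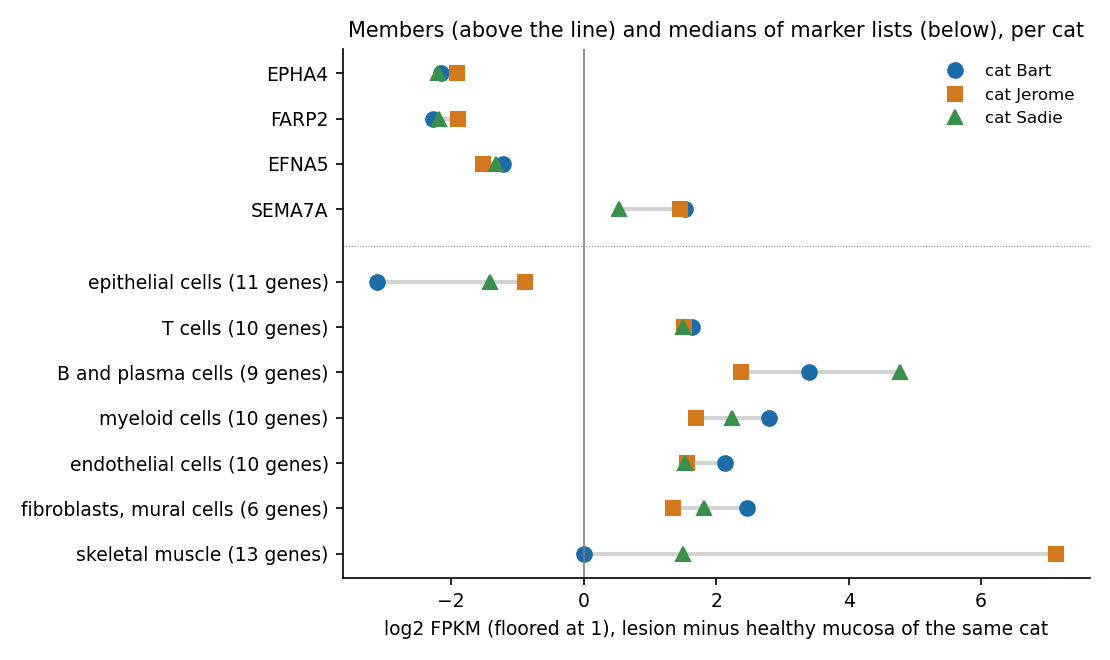
Log2 difference in FPKM (floored at 1), FCGS lesion minus healthy mucosa of the same cat, for the 4 guidance genes (above the dotted line) and as the median of each marker list (below it), with 1 symbol per cat. EPHA4, FARP2, EFNA5 and the epithelial median (KRT4 included, -3.12 in Bart, -0.89 in Jerome and -1.41 in Sadie) lie below 0 in each cat, and SEMA7A and the leukocyte, endothelial and fibroblast medians lie above it.

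The calls depended on the libraries of Jerome and Sadie more than on those of Bart. Leaving out a single library or both libraries of a cat, 9 fits in all, kept the sign of all 4 differences. That sign was fixed in advance, since the lesion and healthy values of the 4 genes did not overlap. The log2 difference stayed between -2.24 and -1.89 for EPHA4, -1.42 and -1.25 for EFNA5, 1.00 and 1.49 for SEMA7A, and -2.28 and -2.00 for FARP2. EPHA4, EFNA5 and FARP2 kept their calls without the lesion, the healthy mucosa or both libraries of Bart. Without the lesion of Jerome EFNA5 lost its call (adjusted p = 0.0559) and EPHA4 and FARP2 kept theirs. Without the healthy mucosa of Jerome, the lesion or healthy mucosa of Sadie, or both libraries of either cat, 0 of the 4 passed, with adjusted p of 0.0521 to 0.29. In these fits 0 to 132 identifiers of 13327 passed in all. SEMA7A lost its call in all 9 fits, at an adjusted p of 0.0662 to 0.29. At the unadjusted level EPHA4, EFNA5 and FARP2 were under 0.05 in 9 of 9 fits and SEMA7A in 8.

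**Figure D5:**
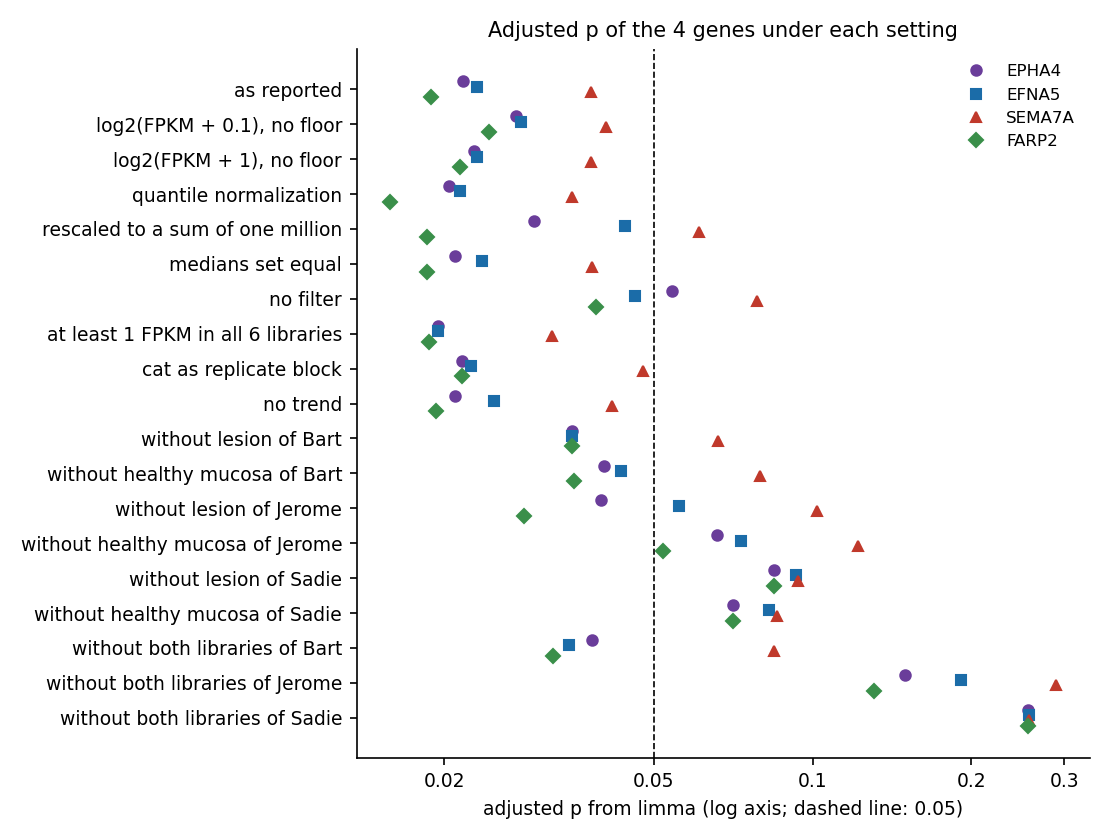
Adjusted p from limma (log axis) of EPHA4, EFNA5, SEMA7A and FARP2 as reported and under each other setting, with the threshold of 0.05 as a dashed line. The 4 genes stay left of the line under most scalings and move right of it together once a library of Sadie or the healthy mucosa of Jerome is left out.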

How the data were processed

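RNA of 6 libraries, an FCGS lesion and adjacent healthy mucosa from each of 3 cats, was sequenced with a strand-specific poly(A) kit. The labels give single reads of 50 bases, whereas the study's text gives paired reads of another length. The authors deposited FPKM values per Ensembl gene identifier, made with Cuffnorm. In the submitters' processing notes stand Cuffnorm, Cufflinks, HISAT and bcl2fastq, with no version, and the sources used here do not give the genome build or annotation. FPKM are already divided by transcript length and library size, so no count model was used.

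FPKM below 1 were raised to 1 and log2 was taken, as the header of the study's gene listing describes, so differences of genes near 1 FPKM are understated. Two-sided tests of the 13327 identifiers that reached 1 FPKM in 3 or more libraries used limma 3.58.1 (R 4.3.3), with no term but tissue and with its trend of variance on mean level. That fit leaves out the pairing by cat and treats the 6 libraries as independent. The fits that leave out a library or a cat do so too. P-values were adjusted after Benjamini and Hochberg over all identifiers, and the fit was tested on simulated data. Python 3.11.15 served for tables (pandas 2.3.3, numpy 2.4.6) and for figures (matplotlib 3.10.9). The p-values rest on the spread between libraries of these 3 cats only, with the variance of each gene drawn toward limma's trend over all identifiers tested.

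The labels place both biopsies of a pair in the same animal. Across genes, deviations from the tissue means correlated between both libraries of a cat at 0.495 (Bart), 0.196 (Jerome) and 0.408 (Sadie), and between cats at -0.438 to 0.266. The fit with the cat as a replicate block stands beside a result whose call it changes or whose count it shifts more than 1.5-fold. With the block the SE was 0.184 for EPHA4, 0.175 for EFNA5, 0.266 for SEMA7A and 0.184 for FARP2.

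Identifiers carry no symbols in the files, and the reference gene table matched 0 of them. Symbols came from 1981 rows at hand of the study's supplementary listing of genes that differed at least 2-fold, and the rows with its strongest falls were not used here, so counts of lower genes are incomplete. The values of each row, floored at 1, were found at exactly 1 identifier, compared at 5 significant digits. Left out were 5 symbols turned into dates and 47 rows with fewer than 3 values above the floor, which leaves 1929.

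The 4 genes, the 6 guidance lists and the 8 marker lists were chosen with earlier results of these data known. Named genes were these 4, the list genes with a symbol, and for each of the 4 the 5 other named identifiers with the highest Pearson r of log2 FPKM over the 6 libraries. Alternatives were pseudocounts of 0.1 and 1, other scalings and filters, the block, no trend, and leaving out each library and each cat.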

Additional observations from a re-analysis of the deposited data

How the results depend on the processing

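No difference of EPHA4, EFNA5, SEMA7A or FARP2 changed sign under the 18 alternatives run for each. For the 9 fits that left out a library or a cat this was fixed in advance, since the tissues did not overlap. Pseudocounts of 0.1 and 1 without a floor, quantile normalization, equal medians, the stricter filter, omission of the trend and the cat as a replicate block kept all 4 calls. With no filter (21529 identifiers tested) EPHA4, at -2.09, and SEMA7A, at 1.17, did not pass (adjusted p = 0.0542 and 0.0785), 241 identifiers passed in place of 1588, and 0 guidance genes were called higher (17 at an unadjusted p under 0.05) and 4 lower. With FPKM rescaled to the same sum in every library, SEMA7A, at 1.25, did not pass (adjusted p = 0.0609), and 6 guidance genes were called higher in place of 11. The replicate block raised the identifiers that passed to 3098 and the guidance genes called higher to 21, and among the 4 members it changed no call. No scaling moved the median of all identifiers tested by more than 0.065 on the log2 scale.

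Leaving out a library or a cat gave 0 to 2136 identifiers past the threshold, with 0 without both libraries of Jerome or of Sadie (2436 and 2139 at an unadjusted p under 0.05). Guidance genes called higher numbered 0 to 10 and called lower 0 to 9. The log2 difference ran between -2.24 and -1.89 for EPHA4, -1.42 and -1.25 for EFNA5, 1.00 and 1.49 for SEMA7A, and -2.28 and -2.00 for FARP2. Ranked by Spearman rho in place of Pearson r, 2 of the 5 genes closest to EPHA4 and 1 of 5 for each of the other 3 stayed in the list. Over 6 libraries rho is often tied: 16, 5, 8 and 32 named genes reached the fifth highest rho for EPHA4, EFNA5, SEMA7A and FARP2. With 3 cats, the cause of these shifts was not tested, and symbols limit every count to genes that differed at least 2-fold.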
